A study of Mus musculus with 2 samples.

Results

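The genes described here encode tetraspanins (Cd9, Cd63, Cd81, Cd82 and Cd151) and proteins of the ESCRT machinery with their partner syntenin (Tsg101, Pdcd6ip, Hgs, Sdcbp and Vps4b), which act in the making of extracellular vesicles. They were found through every probe set whose platform annotation gives exactly 1 gene symbol that is one of these 10. This gave 20 probe sets for 9 of the 10 genes, out of 12393 genes named in this way. No probe set is named for Cd63 here, so it has no value.

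RNA came from uterine stromal cells, the connective tissue cells under the uterine epithelium that decidualize around an implanting embryo, isolated by enzymatic digestion of uterine horns on day 5 of pregnancy, day 1 being that of the vaginal plug. Cells of 3 animals per genotype were pooled, and each pool was hybridised to 1 Affymetrix Mouse Genome 430A 2.0 Array, so that 2 arrays were compared. The control array is titled Hif1 flox control and its genotype field reads Hif2 alpha-intact. The other is titled Hif1 cKO with the genotype Hif2 alpha-null, and the breeding note has floxed Hif1 mice crossed with PRcre mice, which carry Cre recombinase under the progesterone receptor promoter, to remove Rac1 from the uterus. Since the labels name different targets, it is called the knockout-labelled array. Strain, maternal age and whether the controls carried Cre are not given in the sources used here. A Cre under this promoter is active in several uterine cell types.

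Tetraspanins are membrane proteins with 4 spans that cluster with each other and with integrins in the plasma membrane, and several are widely used as surface markers of exosomes. ESCRT proteins act in turn on the endosome membrane, where the early complexes gather ubiquitinated cargo, ESCRT-III filaments pinch vesicles off into the lumen, and the ATPases Vps4a and Vps4b take the filaments apart. Syntenin, the product of Sdcbp, ties syndecans to Pdcd6ip (ALIX) and gives another way into the same vesicles. In the uterus, extracellular vesicles are released by epithelium and by decidualizing stroma.

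At the brightest probe set of each gene, 3 of the 4 measured tetraspanins (Cd9, Cd81 and Cd82) were lower on the knockout-labelled array. Of the 5 ESCRT and syntenin genes 4 were higher, Hgs by only 0.04 on the log2 scale, and Tsg101 was slightly lower. Of all genes compared, 55.3% were lower by any amount and 44.7% were higher. Counts this small allow no statement that the directions of the members differ from those shares. Values are MAS5 signals on a linear scale, set to a floor of 19.7 where they lie below it, and a log2 ratio is the knockout-labelled minus the control array at the brightest probe set of a gene unless another is named. The 4 tetraspanins had a median log2 ratio of -0.90 (lowest -1.47, highest 0.66), and the 5 ESCRT and syntenin genes one of 0.40 (lowest -0.22, highest 1.00). The medians lie -1.31 apart, and the ranges overlap through Cd151. The median of all 8593 genes compared was -0.10, so relative to it the groups stood at -0.80 and 0.50. With 1 array per genotype nothing here could be tested, and these values describe 2 pools and not the genotypes.

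How far the log2 ratios of a gene's 2 brightest probe sets part, an SD of 0.64 per ratio over 2660 genes, is the only estimate of error. The spread between animals, pools and hybridisations is not in it. Cd9 (-1.27), Cd82 (-1.47) and Vps4b (1.00) lay farther from 0 than this SD. So did Cd151 at 0.66, though its measured probe sets ran from -1.35 to 0.72. Ratios of about this size were common, since 26.4% of all genes were lower and 18.5% higher by at least 1.5-fold. By the size rule of at least 2-fold, 2 of 9 members were lower (Cd82 and Cd9) and 1 was higher (Vps4b), where 13.0% of all genes passed 2-fold downward and 6.21% upward. Counts so small allow no statement that the share of members differs from that of all genes.

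The sequence just before the RefSeq start site is shown for the 3 members past 2-fold, since the labels name HIF subunits and a reader may want to look for the core of the HIF binding motif there. Capitals mark the HIF core, ACGTG or GCGTG, and the GC box GGGCGG, each on either strand, in 250 bases written along the gene's strand and ending at the base before the start site. Both HIF cores share the letters CGTG, and CACGTG holds ACGTG on both strands. The sequences are RefSeq's, build GRCm38.p6. The build behind the array's probes was not used.
Cd9, chr6:125494761-125495010, minus strand: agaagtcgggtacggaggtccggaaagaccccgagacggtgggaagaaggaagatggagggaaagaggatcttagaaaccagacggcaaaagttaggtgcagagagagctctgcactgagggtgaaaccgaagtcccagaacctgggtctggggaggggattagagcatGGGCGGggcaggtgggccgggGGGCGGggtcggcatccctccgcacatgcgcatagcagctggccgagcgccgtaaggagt
Cd82, first of 4 start sites, chr2:93462951-93463200, minus strand: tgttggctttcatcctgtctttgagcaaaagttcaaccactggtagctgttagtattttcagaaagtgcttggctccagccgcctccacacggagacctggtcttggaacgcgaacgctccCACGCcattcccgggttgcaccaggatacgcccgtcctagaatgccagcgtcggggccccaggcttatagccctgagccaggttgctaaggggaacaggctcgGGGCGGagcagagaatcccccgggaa
Vps4b, chr1:106796726-106796975, minus strand: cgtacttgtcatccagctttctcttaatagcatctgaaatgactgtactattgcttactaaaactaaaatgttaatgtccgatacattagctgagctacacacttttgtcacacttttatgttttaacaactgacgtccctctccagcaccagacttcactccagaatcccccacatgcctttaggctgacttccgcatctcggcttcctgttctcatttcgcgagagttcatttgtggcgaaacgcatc

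The Cd9 stretch holds 2 GC boxes, 81 and 60 bases before the start site, and no HIF core. In the Cd82 stretch there is 1 HIF core, read as CACGC on the strand shown and starting 129 bases before the start site, and 1 GC box at 26 bases. Of its other start sites, not shown, the second has HIF cores at 201 and 15 bases, the third has one at 13 bases and the last has none. That of Vps4b holds neither, and its GC content is 43.2% against 61.6% for Cd9 and 58.4% for Cd82. RefSeq entries for 9 of the 10 members (not Sdcbp) gave 13 stretches, and a HIF core stood in 8 of the 13 and a GC box in 6. Among all 32851 stretches of this length, 38.6% hold a HIF core and 32.7% a GC box. Of the 5 tetraspanins, 4 have a GC box before at least 1 start site (Cd81 has 3 and Cd151 has 2 before its first) and Cd63 has none. Among the 4 ESCRT members with an entry, Hgs alone has one. Cd82 has 4 start sites and Cd151 has 2, while each of these ESCRT members has 1. Counts by gene are therefore not comparable between the groups, or with the share of all stretches. TATAAA was found in none of the 13, against 12.4% of all. A match of letters is a description and shows no binding.

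**Figure D1:**
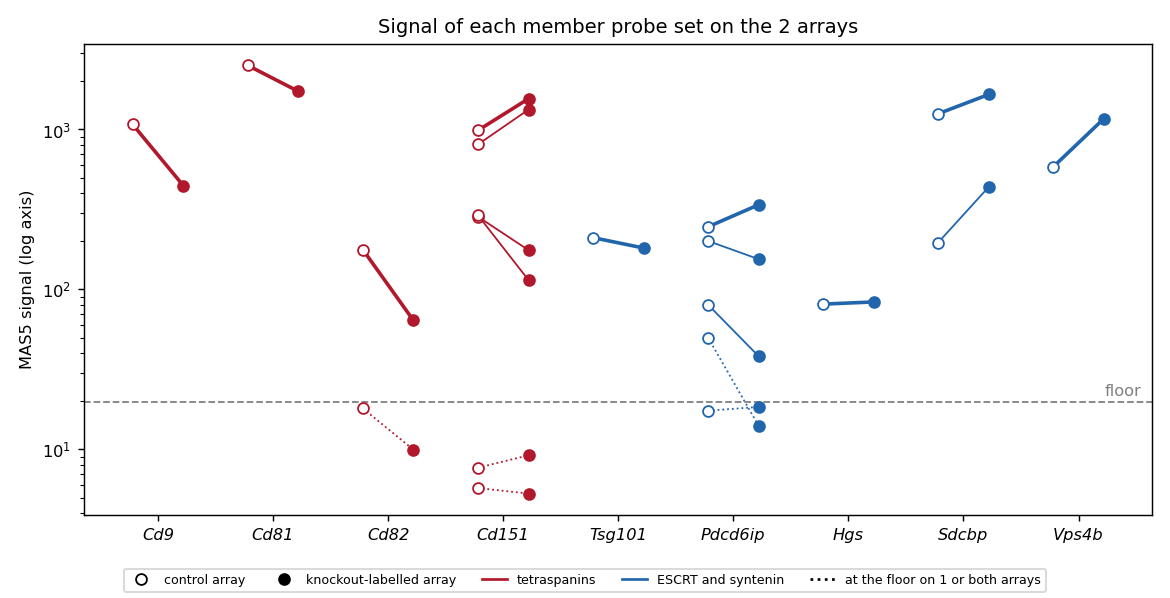
MAS5 signal on a log axis for each of the 20 member probe sets, with open points for the control array, filled points for the knockout-labelled array, thick lines for the brightest probe set of a gene and a dashed line at the floor of 19.7. Cd9, Cd81 and Cd82 slope down, Sdcbp and Vps4b slope up, and the probe sets of Cd151 and Pdcd6ip go both ways.

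Cd9, a tetraspanin that joins integrins and is abundant on vesicles of many cells, is represented by a single probe set, 1416066_at. Its signal was 1075 on the control and 446 on the knockout-labelled array. That is 2.41-fold lower, a log2 ratio of -1.27, and 7.63% of all genes compared had a ratio as low or lower. Genes as bright as Cd9 tended to be higher on the knockout-labelled array, with a median log2 ratio of 0.31 in the brightest of 5 equal groups of genes by signal, and Cd9 lay -1.58 from that median. In this group 6.69% of genes were 2-fold lower or more.

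Cd82, also called KAI1, is a tetraspanin known as a suppressor of metastasis. Its signal at 1416401_at was 178 in the control and 64.0 in the knockout-labelled RNA, the lowest ratio of any member (2.78-fold lower, log2 ratio -1.47). A second probe set of Cd82, 1449611_at, had signals of 18.0 and 9.96, below the floor on both arrays, and gives no ratio. Cd82 therefore rests on 1 probe set, as Cd9 does. In its group of genes by signal the median log2 ratio was -0.19, and 14.8% of genes were lower by 2-fold or more.

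Cd81, a tetraspanin that partners Cd9 and is a common exosome marker, had signals of 2516 and 1731 at its only probe set. It was 1.45-fold lower (log2 ratio -0.54), which is within the SD of 0.64 between probe sets. Against the median of equally bright genes it lay at -0.85. It was lower under all of the 9 other settings tried, with log2 ratios from -0.86 to -0.26. The other floors and the choices among probe sets left its ratio unchanged.

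Cd151, a tetraspanin that holds laminin-binding integrins, had no settled direction. Of its 6 probe sets 2 were below the floor on both arrays, with signals of 5.74 and 5.29 at 1420921_at and of 7.69 and 9.18 at 1427525_at. The brightest, 1437670_x_at, had signals of 986 and 1557 (log2 ratio 0.66), higher on the knockout-labelled array, and 1456085_x_at had 806 and 1331 (0.72). Both bear the suffix _x_at, of probe sets that can bind several transcripts, and so does 1424093_x_at, which was lower.

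The other measured pair of Cd151 probe sets, which share 1 annotated source transcript, were lower. Signals at 1424093_x_at were 285 and 176 (-0.70), and at 1451232_at they were 291 and 114 (-1.35). The ratios of this gene thus span 2.07 on the log2 scale. Of 188 genes with 4 measured probe sets, 37 had a span as large or larger, Cd151 counted among them, and the median span was 1.44. Over all genes, probe sets with the suffix _x_at had a median log2 ratio of 0.48 (963 compared), and those with the plain suffix one of -0.15 (8651 compared). The part of this suffix difference in the result for Cd151 was not tested, nor was that of the difference in RNA ends between the arrays, given below. The only plain probe set of Cd151 that was measured, 1451232_at, was 2.55-fold lower, and it is the dimmest of the 4 by mean log2 signal.

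Counted over probe sets in place of genes, 5 of 7 compared tetraspanin probe sets were lower by any amount, 3 of them past 2-fold, and none was higher past 2-fold. The background over all 13284 probe sets compared was 13.9% lower and 6.84% higher past 2-fold, and 56.0% lower by any amount. Of these 7, 4 belong to Cd151, so they are no independent readings.

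**Figure D2:**
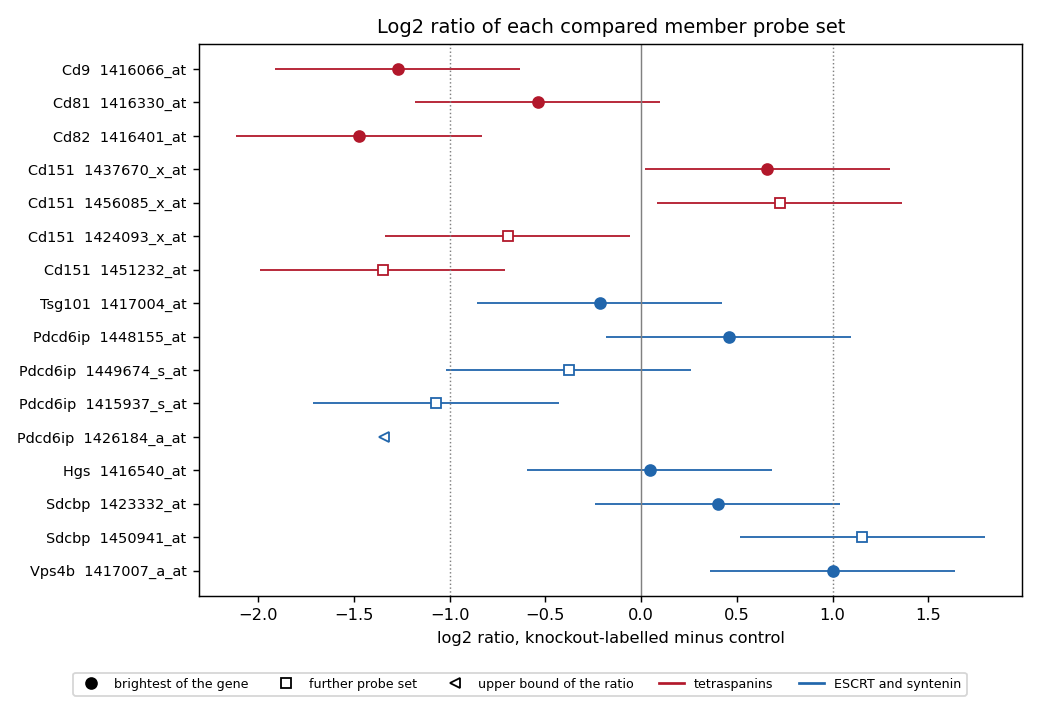
Log2 ratio (knockout-labelled minus control) of the 16 member probe sets above the floor on at least 1 array, where bars show the SD of 0.64 between probe sets of a gene, not a replicate error, and the open triangle is an upper bound. Dotted lines stand at 2-fold, and Cd151 and Pdcd6ip have points on both sides of 0.

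Of the ESCRT members, Hgs and Tsg101 of the early complexes differed little between the arrays. Hgs (HRS), the ESCRT-0 subunit that binds ubiquitinated cargo, went from 81.0 in the control to 83.5 (log2 ratio 0.04). Tsg101, the ESCRT-I subunit that receives that cargo and a standard exosome marker, had signals of 211 and 182. Its log2 ratio of -0.22 turned to 0.07 when each array was centred on its median. Both genes have 1 probe set, and both ratios lie well inside the SD between probe sets.

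Vps4b, the ATPase that recycles ESCRT-III, was higher at its only probe set, 1417007_a_at, with signals of 584 and 1169. The fold of 2.00 puts it right at the size rule, and it dropped below 2-fold after quantile normalization (log2 ratio 0.94) and once the loess trend was taken out (0.84). Of the genes compared, 6.20% had a ratio as high or higher. Against the median of equally bright genes it stood at 0.70.

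Sdcbp (syntenin) was higher at both of its probe sets, which share an annotated source transcript. Signals at 1423332_at were 1255 and 1656 (log2 ratio 0.40), and at 1450941_at they were 196 and 438 (1.16, or 2.23-fold). The brighter of the pair lies only 0.10 above the median of equally bright genes. The log2 ratio stayed above 0 under all 9 other settings, from 0.14 to 1.16. Among these, the other floors and the removal of _s_at and _x_at probe sets left it unchanged at 0.40.

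Pdcd6ip, whose product ALIX binds both syntenin and ESCRT-III, was split like Cd151. At 1448155_at its signal was 246 in the control and 338 in the knockout-labelled RNA (0.46). The next probe set, 1449674_s_at, had 201 and 155 (-0.38), and 1415937_s_at had 80.3 and 38.2 (-1.07), although the latter shares its annotated transcript with the first. At 1426184_a_at the signal was 50.1 on the control array and below the floor on the other, which makes it at least 2.54-fold lower. A further probe set, 1460263_at, had 17.5 and 18.4, below the floor on both arrays.

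The brightest probe set of Pdcd6ip is thus the only one of the 4 compared that was higher, and the direction of the gene was not settled. The span over the 3 measured on both arrays was 1.53, and 176 of 576 genes with as many measured probe sets had a span as large or larger, Pdcd6ip included. Over the whole ESCRT and syntenin group, 5 of 9 compared probe sets were higher by any amount, against 44.0% of all probe sets, and past 2-fold 2 were higher and 2 lower. By probe sets, then, this group had no prevailing direction, and its median of 0.40 became 0.04 when each gene took the median over its probe sets.

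**Figure D3:**
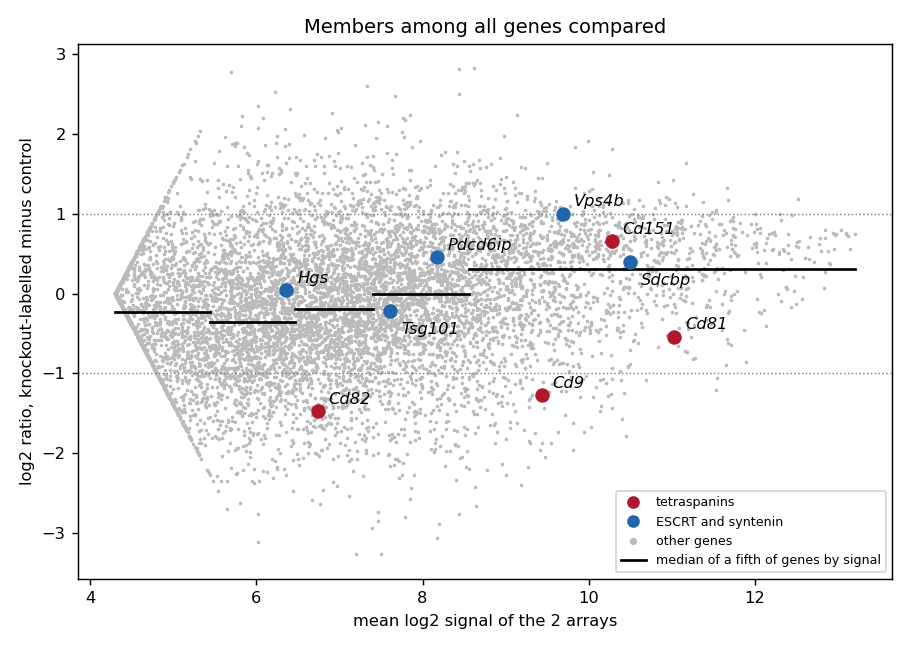
Log2 ratio (knockout-labelled minus control) against the mean log2 signal of both arrays for 8593 genes in grey, with the 9 members in colour and black bars at the median of 5 equal groups of genes by signal. Cd9, Cd81 and Cd82 lie below the bar of their group, Cd151 and Vps4b above the bar at 0.31 of the brightest group, and Sdcbp close to it.

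The other tetraspanins of the mouse genome had no common direction. Of 26 listed, 22 have a probe set here and 16 were compared. Past 2-fold, 2 of these were lower and none higher, against 13.0% and 6.21% of all genes. The median of this list, -0.13, is close to that of all genes. It turned to 0.13 when each array was centred on its median, with counts of 0 lower and 3 higher (1 and 1 under quantile normalization). That centring moved all genes too, to 7.77% lower, 13.4% higher and a median of 0.16. Tspan5 (signals 107 and 48.7, log2 ratio -1.13, with -0.66 at its next probe set) and Tspan4 (524 and 241, -1.12) were lower, though not past 2-fold after median centring (-0.85 and -0.84). Tspan5 also fell short of 2-fold after quantile normalization (-0.88) and without the loess trend (-0.88). The 2 brightest went opposite ways: Tspan13 had 770 and 1493 (0.96), with -0.68 at its other probe set, and Tspan31 had 931 and 732 (-0.35), with 0.82 at another. Of the 16, 11 were lower by any amount, and with the members added 14 of 20, against 55.3% of all genes. The median of the 20 was -0.16, and that of the whole family turned to 0.11 after median centring.

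Proteins that bind tetraspanins were compared as a list of 14 genes above the floor, with a median of -0.36. Past 2-fold, 2 were lower and none higher, against 13.0% and 6.21% of all genes. After median centring 1 was lower and 1 higher (7.77% and 13.4% of all genes), and the median of the list was -0.11. Igsf8, an immunoglobulin superfamily partner of Cd9 and Cd81, had signals of 78.6 and 32.1 (log2 ratio -1.29). Ptgfrn, the related partner, was below the floor on both arrays. Ifitm2, of a family of interferon-induced membrane proteins found with Cd81, was lower (1383 and 641, -1.11), and its brighter relatives Ifitm3 (-0.65) and Ifitm1 (0.65) went opposite ways.

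Within the wider ESCRT machinery, 27 of 30 listed genes were compared. Past 2-fold, 3 were lower and 1 higher, against 13.0% and 6.21% of all genes. The median of this list was -0.42, on the opposite side of 0 from the ESCRT and syntenin members. After median centring the counts turned to 1 lower and 4 higher, with a median of -0.14. The shares of all genes turned likewise, to 7.77% lower and 13.4% higher. The 3 lower genes all encode ESCRT-III subunits. Chmp1a had signals of 192 and 60.8 (log2 ratio -1.66), Chmp2a had 444 and 217 (-1.03), and Chmp3 had 70.0 and 34.6 (-1.02, with -1.56 at its other probe set). Chmp3 was no longer past 2-fold under quantile normalization (-0.75), median centring (-0.74) and removal of the trend (-0.74). Chmp2a was not past 2-fold under quantile normalization (-0.96) or median centring (-0.75).

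Other ESCRT-III genes were higher or mixed. Chmp5 had signals of 570 and 1099 (0.95), and Chmp4b, the main filament subunit, had 1238 and 1530 (0.31) but -0.52 at its other probe set. Over 9 ESCRT-III genes compared the median was -0.64. Vps37a of ESCRT-I was higher (31.3 and 64.8, 1.05, and 1.89 at its other probe set), at signals not far above the floor. Vps4a, the other ATPase, had a log2 ratio of -0.52 (1 probe set), opposite to Vps4b.

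The syndecan and syntenin pathway was measured by 7 genes, with a median of 0.13. Past 2-fold, 1 of them was higher and none lower, against 6.21% and 13.0% of all genes. None of the 7 was past 2-fold after quantile normalization (Sdc4 at 0.97) or without the loess trend (0.88). After median centring 2 were higher, as were 13.4% of all genes. Sdc4, a syndecan that binds syntenin, went from 480 to 962 at the probe set that stands for the gene (1.00), but 0.05 at the other. Arf6, a GTPase of this route, had 965 and 1759 (0.87), yet its further probe sets gave 0.59, -0.29 and -2.83. Sdc1 differed little (760 and 889, 0.23), with -0.65 at the next.

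Genes of vesicle release and cargo, 10 compared, held 2 lower past 2-fold and none higher (median -0.31), against 13.0% and 6.21% of all genes. After median centring this turned to 1 lower and 3 higher (median -0.03), against 7.77% and 13.4% of all genes. Smpd2, a neutral sphingomyelinase, had signals of 103 and 41.0 (log2 ratio -1.33), and Anxa5, a phosphatidylserine-binding annexin, had 1430 and 699 (-1.03). Of the brightest, Hspa8 had 6198 and 10408 (0.75, with -0.29 to -0.13 at 3 others) and Anxa2 had 2110 and 1695 (-0.32). Rab27a and Rab27b, the GTPases of exosome secretion, and the sphingomyelinase Smpd3 were below the floor on both arrays.

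**Figure D4:**
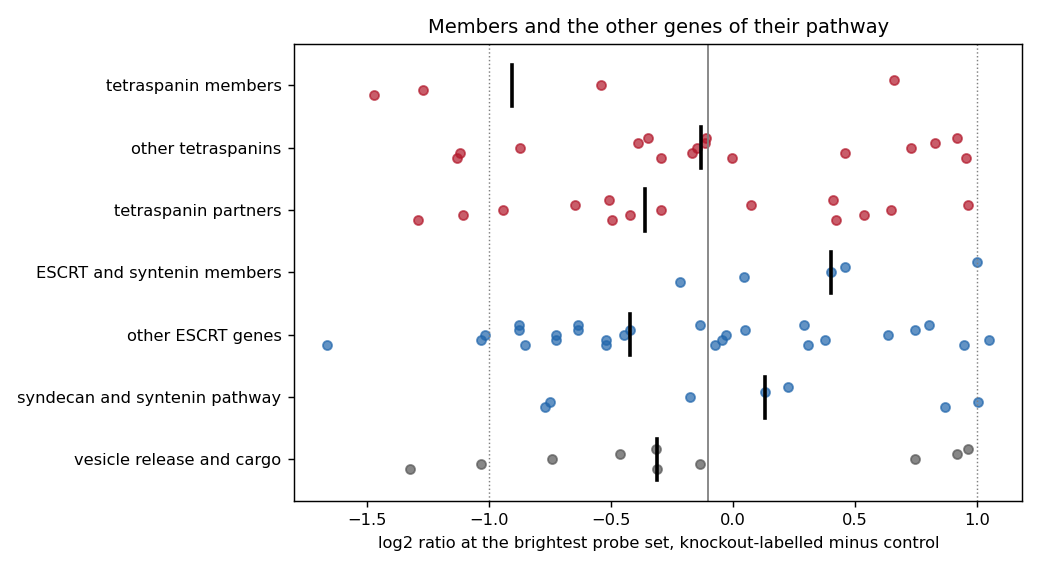
Log2 ratio at the brightest probe set for the members and the genes of 5 further lists, 1 point per gene, with a black bar at each list's median, a grey line at the median of all genes (-0.10) and dotted lines at 2-fold. The tetraspanin members have the lowest median of the 7 lists shown (-0.90) and the ESCRT and syntenin members the highest (0.40).

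By the likeness rule, the genes nearest to Cd9 in log2 ratio among 692 within 0.5 of its mean log2 signal were Klf2 (-1.27), Creld2 (-1.26) and Rarres2 (-1.28). Those nearest to Cd82, among 1834, were Grk5 (-1.46), Ubxn6 (-1.46) and Cap1 (-1.49). With 2 arrays a pattern is a single ratio, so such likeness is shared by many genes.

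Several facts of the arrays move with the genotype labels and so stand beside each of these results. The signal at the 3' end over that at the 5' end was 2.27 (control) and 16.0 (knockout-labelled) for b-actin, and 1.49 and 7.25 for Gapdh. These are 7.08 and 4.86 times the control ratio, so 5' ends gave relatively far less signal on the knockout-labelled array. The place of each probe set along its transcript was not analysed. Its part in the splits among the probe sets of Cd151 and Pdcd6ip was not tested. Of the named targets, Epas1 (HIF2 alpha) had signals of 59.4 and 78.1, Hif1a 721 and 1544, and Rac1 1038 and 757 (664 and 332 at its next probe set, 2.00-fold lower), so each was above the floor in the knockout-labelled RNA. Where their probes lie with respect to a deleted stretch was not analysed here, so these signals do not check the genotype.

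Cell type markers also differed, and in RNA from a digest fewer cells of a type and less RNA per cell cannot be told apart. The marker counts past 2-fold stand beside 13.0% of all genes lower and 6.21% higher. All 15 stromal markers were above the floor on at least 1 array (Esr1 only on the knockout-labelled one), with 1 lower past 2-fold, Hoxa11 (389 and 108, -1.85), none higher and a median log2 ratio of 0.06. By any amount 6 of them were lower, while their summed signal, to which Col3a1 (7439 and 10987) and Col1a2 (5923 and 8583) add most, was 34738 and 47147. Past 2-fold, 4 of 15 epithelial markers were lower and 1 higher (summed signal 8362 and 6209). Of 15 endothelial ones 6 were lower (5168 and 3967), with Pecam1 the lowest at -2.34. The 12 smooth muscle and pericyte markers had 4 lower (14875 and 17486), and the 14 myeloid ones had 6 lower and 2 higher (5608 and 5565). Each marker counts by its brightest probe set, and others could disagree. C1qb, 1 of the 2 higher myeloid ones, gave 1.58 there but 0.54 and -2.68 at its other probe sets. Sox17 gave 0.97 and then -1.40, and Myh11 went the other way, from -0.78 to 1.21. Lymphocyte and NK markers had 3 of 9 lower and 1 higher (1373 and 1227). Of 6 platelet markers, 4 were below the floor on both arrays, Pf4 was at 0.27 and Itga2b was at least 2.22-fold lower. Tetraspanins are expressed in many of these cell types, Cd9 strongly in epithelium and platelets, and the part of cell makeup and RNA ends in the members' ratios was not tested.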

How the data were processed

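The authors deposited 1 intensity per probe set and array, a MAS5 signal on a linear scale, made per the submitters' processing notes with MAS5 in Affymetrix Expression Console version 1. Total RNA was amplified and biotin-labelled with a 3' kit, per the labels' protocols. The scaling target and detection calls were not used here. The mean signal after 2% was trimmed from either end was 150.1 on each array, and the authors' scaling was kept.

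Of 22690 probe sets, 64 controls entered no gene result, 20380 have 1 gene symbol, 691 several and 1555 none here. Symbols were updated through Entrez identifiers in a RefSeq table of GRCm38.p6 (20351 matched). A floor of 19.7, the 40th percentile over both arrays, replaced lower signals before the log2 scale was taken. A gene took its probe set of highest mean log2 signal, and 3800 genes at the floor on both arrays were left out. Differences were read by a size rule of 2-fold, with no test, since there is 1 array per group. The number of arrays limits the precision. The size rule was tested on simulated data. That checks the calculation only and gives no error rate for these arrays.

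Members, lists and rules were chosen with earlier results of these data known. Named are all members with every probe set, up to 4 genes past 2-fold and the 2 brightest of each further list, fewer for markers, and the 3 genes nearest in ratio to Cd9 and to Cd82. Alternatives were 3 scalings, 2 floors, a pseudocount of 4.70 (20th percentile), the median over probe sets, no _s_at or _x_at probe sets, other folds and counts of probe sets. The next brightest probe set was added after seeing the data. Python 3.11.15, pandas 2.3.3 and statsmodels 0.14.6 (loess span 0.4) were used.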

Additional observations from a re-analysis of the deposited data

How the results depend on the processing

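Directions at the brightest probe set held under all 9 other settings for Cd9, Cd81, Cd82, Hgs, Sdcbp and Vps4b, and for the medians of the tetraspanins (-1.31 to -0.62) and of the ESCRT and syntenin genes (0.04 to 0.68). Choices among probe sets cannot alter Cd9, Cd81, Tsg101, Hgs and Vps4b, which have 1 each, or Cd82, which has 1 above the floor. The 2 other floors left these ratios unchanged too, except that of Cd82 at the 60th percentile (-1.42). Sdcbp was likewise unchanged (0.40) by the other floors and by leaving out _s_at and _x_at probe sets. Tsg101 turned from -0.22 to 0.07 with medians matched. Cd151 turned from 0.66 to -1.35 without _s_at and _x_at probe sets and moved to -0.019 with the median over its probe sets. Pdcd6ip moved from 0.46 to -0.72 with that median and to -0.38 at its next brightest probe set, and Sdcbp moved to 1.16 at its next.

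The count of members at least 2-fold lower, 2 as reported, was 1 with each array centred on its median (Cd9 at -0.99), 0 at 3-fold, 3 without _s_at and _x_at probe sets (Cd151 added) and 5 counted as probe sets. The count of members at least 2-fold higher, 1 as reported, was 0 after quantile normalization, after removal of the loess trend, with the pseudocount and at 3-fold, and 2 at 1.5-fold, counted as probe sets or with the next brightest probe set. Of all genes past 2-fold, 32.3% were higher as deposited, 46.5% with quantiles matched, 63.3% with medians matched and 43.4% without the loess trend, and the median of all genes moved from -0.10 to 0.03, 0.16 and -0.01. No paired analysis was possible because each group has 1 array. The cause of these shifts was not tested. Signals near the floor (Cd82's and Cd151's dim probe sets) give no ratio.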

Other observations

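Some tetraspanin and ESCRT genes that the naming rule left out agreed over several probe sets, and they were chosen after their values were seen. Tspan8, a tetraspanin of epithelia, had a log2 ratio of 0.92 at its brightest probe set, and its 3 others, below the floor on the control array, gave bounds of at least 0.92, 0.88 and 0.57. Tspan2 was higher at its 3 probe sets (0.73, 0.83 and 0.08). Chmp1b, an ESCRT-III subunit, gave 0.80 and 0.68, opposite to Chmp1a. Stam, the ESCRT-0 partner of Hgs, gave 0.29 and 1.05. Mvb12a of ESCRT-I was lower at its brightest (-0.72), and its others, below the floor on the knockout-labelled array, gave -1.40 or lower and -0.57 or lower. Lower at single probe sets were Vps28 (-0.88), which binds Tsg101, and Chmp7 (-0.85).

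Disagreement of sign between probe sets was common. Of 2660 genes with at least 2 probe sets measured on both arrays, 55.0% had ratios on both sides of 0, and of 270 genes with at least 4 it was 77.4%. Cd151 and Pdcd6ip are 2 of these genes.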
